A study of Drosophila melanogaster with 9 samples.

Results

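The Y-linked fertility genes described here are 10 protein-coding genes of the Drosophila melanogaster Y chromosome, kl-2, kl-3, kl-5, ORY, CCY, PRY, Ppr-Y, WDY, ARY and Pp1-Y2, chosen by name from the annotation, out of 17715 genes in the table. RNA was sequenced from whole third-instar larvae in 9 libraries, 3 each of normal diploid males (XY), normal diploid females (XX) and metafemales (XXX). The male and female larvae were the Canton S wild type, and the metafemales came from attached-X mothers, C(1)DX, ywf/winscy, crossed with Canton S males, all kept at 25 °C. Metafemale larvae carry the attached X chromosome and a further X with no Y, and were picked by sex and by their black mouthparts from siblings that included XY males and attached-X females with a Y. The sources do not say how many larvae made up a library or whether libraries of a group came from separate cultures, so the p-values below measure only the spread between these libraries. Males are the only group with a Y chromosome, which makes the females and metafemales a check of absence.

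The Drosophila Y chromosome is not needed for viability or for sex determination, but males without it are sterile, because it carries genes used to build sperm. These genes are transcribed in primary spermatocytes, the growing cells that precede meiosis, and several of them have enormous introns filled with satellite DNA that form visible loops in the spermatocyte nucleus. The testes of third-instar larvae hold spermatogonia and primary spermatocytes, so a whole male larva contains the cells that use these genes beside all its other tissues. kl-2, kl-3 and kl-5 encode axonemal dynein heavy chains, the motor proteins that make the sperm tail beat. ORY and CCY (occludin-related and coiled-coil proteins) have been assigned to fertility factors of the short arm, while not every gene of the group has a proven part in fertility. PRY is named for its relation to polycystin, WDY is a WD-repeat protein, ARY is related to aldehyde reductases and Pp1-Y2 is a catalytic subunit of protein phosphatase 1.

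In the annotation (BDGP6.54), the group splits into genes with very long introns and compact genes. kl-3 spans 226.8 kb of chromosome Y (336381 to 563165, plus strand) with 16 exons that together measure 13.9 kb, and its longest annotated intron is 120.3 kb. kl-5 (22250 to 137486, minus strand) spans 115.2 kb with 13.7 kb of exon, and kl-2 (573088 to 664173, plus strand) spans 91.1 kb with 13.4 kb of exon. The proteins of these dynein genes have 4593, 4559 and 4459 residues, in the order kl-3, kl-5, kl-2. Ppr-Y (1636574 to 1884846, plus strand) has the longest span of the group, 248.3 kb, of which only 0.689% is exon, and WDY (2273422 to 2487777, plus strand) has 1.58% exon in 214.4 kb. Intermediate spans belong to ORY (3561745 to 3618339, plus strand, 56.6 kb), PRY (146092 to 192020, minus strand, 45.9 kb) and CCY (3649996 to 3666928, plus strand, 16.9 kb). The compact genes are ARY (702430 to 704048, plus strand), with 5 exons in 1.62 kb, and Pp1-Y2 (3539437 to 3540722, minus strand), a single exon of 1.29 kb. Spans depend on how much of the satellite DNA was assembled.

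**Figure D1:**
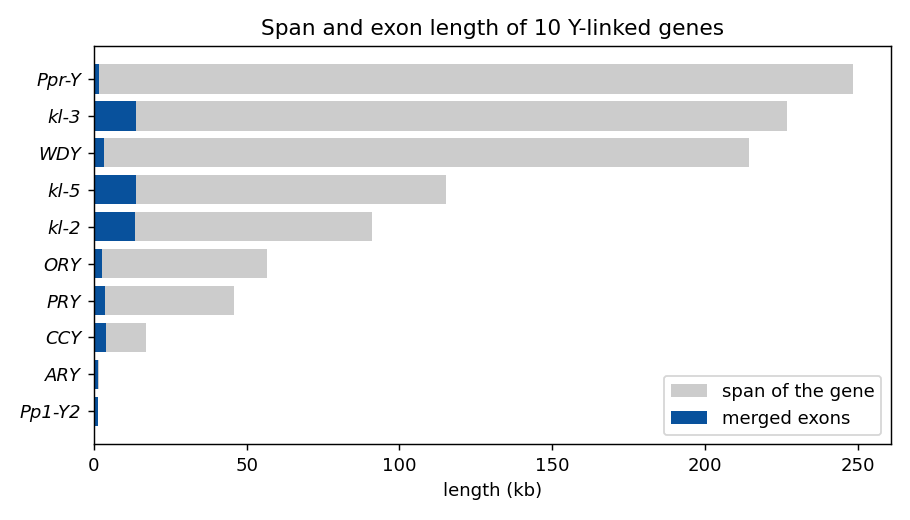
Span of each gene (grey, kb) and summed length of its merged exons (blue, kb) for the 10 genes in the BDGP6.54 annotation. Ppr-Y, kl-3 and WDY span over 200 kb, exons are a small part of every long gene, and ARY and Pp1-Y2 consist almost only of exon.

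All 10 genes were counted in every male library. Values are estimated counts, or CPM, which are counts per 1000000 counts of the library. The dynein gene kl-3 had the most, with 17962, 37434 and 5941 counts in male replicates 1, 2 and 3, or 134.9, 210.4 and 45.4 CPM. kl-5 followed with 42.1, 92.5 and 18.8 CPM, and kl-2 had 21.9, 43.1 and 12.0 CPM. Each of these dynein genes was highest in replicate 2 and lowest in replicate 3.

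Among the genes with the largest introns, Ppr-Y had 31.8, 84.4 and 35.3 CPM in male replicates 1, 2 and 3. WDY had 43.2, 56.1 and 19.2 CPM. ORY had 10.1, 18.2 and 5.57 CPM. Replicate 2 was again the highest for all of them, and replicate 3 the lowest for WDY and ORY but not for Ppr-Y, which was lowest in replicate 1.

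The other genes were less abundant. PRY had 3.68, 8.57 and 3.72 CPM in male replicates 1, 2 and 3, and CCY had 4.25, 7.14 and 1.63 CPM. ARY had 2.69, 3.16 and 1.67 CPM, and Pp1-Y2, the lowest of the group, had 0.661, 1.37 and 0.626 CPM, which are 88, 243 and 82 counts. Even these lowest values lay well above 3 counts, the smallest level taken as detectable. Summed over the group, the males had 39325, 93385 and 18838 counts, or 321.4 ± 191.8 CPM (SD, n = 3). That is 0.0295%, 0.0525% and 0.0144% of the library totals of 133160096, 177910781 and 130919406 counts.

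**Figure D2:**
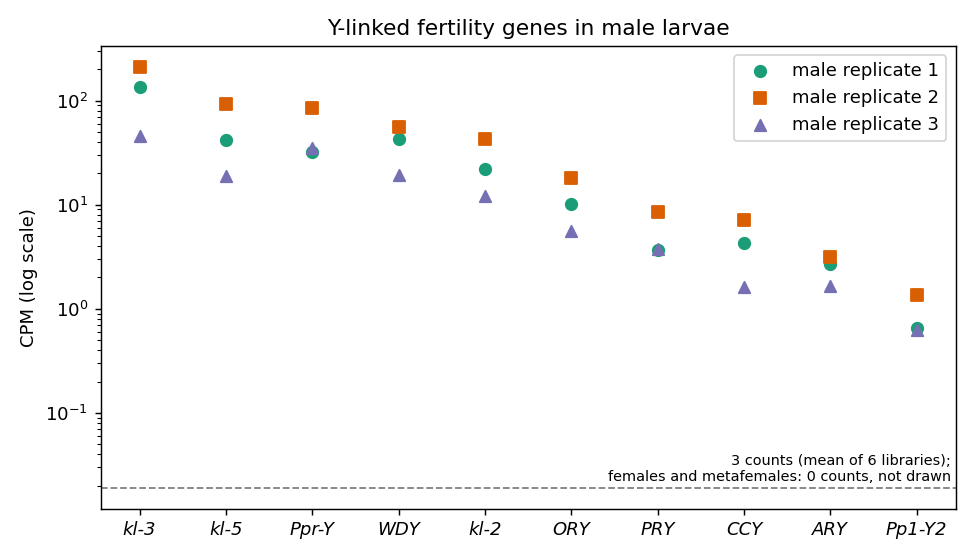
CPM (log scale) of each gene in the 3 male libraries, one symbol per library, ordered by the male mean; the dashed line marks 3 counts, as the mean over the 6 female and metafemale libraries, in which every gene had 0 counts. Levels run from 210.4 CPM for kl-3 to 0.626 CPM for Pp1-Y2, and male replicate 2 is highest for all 10 genes.

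No count of any of the 10 genes was present in the 3 female or the 3 metafemale libraries, that is, in all 60 combinations of gene and library. The female libraries had totals of 138223737 to 184268612 counts and the metafemale libraries 139954374 to 168844124. A count of 0 there allows a level of up to 3 counts per library, or 0.0193 CPM on average in females and 0.019 CPM in metafemales, which covers counting error only. Against that floor, the male mean of kl-3 was at least 6738-fold higher than in females, that of kl-5 at least 2646-fold, that of Ppr-Y at least 2613-fold and that of WDY at least 2043-fold. The bounds were 1328-fold for kl-2, 584-fold for ORY, 275-fold for PRY, 225-fold for CCY, 130-fold for ARY and 45.8-fold for Pp1-Y2. They follow the depth and the male level of each gene, so a smaller bound does not mean a smaller difference. Without male replicate 2, an alternative added after seeing the data, the bound moved by over 1.5 times for kl-5 (to 1577-fold), kl-2 (to 878-fold) and Ppr-Y (to 1735-fold). Against the metafemales the corresponding bounds ran from 46.5-fold for Pp1-Y2 to 6847-fold for kl-3. Larvae with a Y grew in the same cross as the metafemales, and none of their transcripts of these genes was detectable at this depth in the metafemale libraries.

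An edgeR quasi-likelihood test on all genes that passed a filter on low counts was used to compare males with females. A gene was called when its adjusted p was below 0.05 (Benjamini-Hochberg over all genes tested) and its log2 fold change above 1 in size. All 10 genes passed the filter, which they did through the males alone, so a difference was bound to follow for genes with this many male counts. All 10 were called higher in males, against 17.6% of the 13677 genes tested, while 0.329% were called lower and 17.9% in either direction. Adjusted p-values ran from 0.000164 for ARY to 0.00116 for CCY (edgeR), CCY having a male range of 1.63 to 7.14 CPM. The order of these adjusted p-values (edgeR) was not that of the levels, since ARY, at 2.5 CPM, had the lowest and kl-3, at 130.2 CPM, had 0.000511. The male libraries lay above every female library for 10 of 10 genes, and this held for 26.1% of all genes tested. Against metafemales, which share the male libraries with the first comparison, all 10 genes were again called higher in males, where 21.3% of 13784 genes were (9.52% lower, 30.8% in either direction), with adjusted p-values (edgeR) from 0.000135 for WDY to 0.000781 for CCY. Every male library lay above every metafemale library for 10 of 10 genes and for 37.1% of all genes tested. In the comparison of metafemales with females, 0 of the 10 genes passed the filter, so none had a test in edgeR or DESeq2 and none has an unadjusted p (0 of 10 under 0.05), while 14.6% of the 11972 genes tested were called, 9.89% higher and 4.69% lower in metafemales. With all 9 libraries in 1 edgeR fit, in which the male counts carry the 10 genes past the filter, 0 of 10 were called between metafemales and females, every value being 0.

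Exact absence outside males was not particular to the Y chromosome. In all, 13187 genes reached 10 counts or more in each male library, of which 665 (5.04%) had 0 counts in all 6 female and metafemale libraries. Of these, 636 lie on other chromosomes and 29 on the Y. The Y held only 30 genes with such male counts, so nearly all of them had this pattern, unlike the genes of other chromosomes. At a minimum of 100 counts in every male library, 402 genes of the whole table (2.27%) had this pattern, including 9 of the 10 genes described here. Pp1-Y2 missed that minimum. The labels were checked with genes of the dosage compensation and sex determination pathways: the male-specific RNA lncRNA:roX1 was at 237.7 to 325.3 CPM in males and at most 18.4 CPM in the other libraries, and lncRNA:roX2 was at 187.0 CPM or more in males and at most 3.34 CPM elsewhere. The sex determination gene Sxl was at 59.7 to 122.7 CPM in males and at 162.8 CPM or more in the other libraries. Assembled transcripts without a gene took 24.6% to 32.6% of the counts in males and 13.4% of those in metafemale replicate 1, the lowest share of the series. Whether any of them took reads from the Y-linked genes was not tested.

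Levels can be compared between genes only per length, so CPM was divided by the merged exon length in kb. Ppr-Y had the highest level, 29.5 ± 17.2 CPM per kb (SD, n = 3), with 18.6, 49.4 and 20.6 in male replicates 1, 2 and 3. WDY had 11.6 ± 5.51 CPM per kb and kl-3 had 9.38 ± 5.95. Ppr-Y exceeded WDY in all 3 libraries with ranges that did not overlap, the only pair of neighbors in the order of which this was true. WDY exceeded kl-3 in 3 of 3 libraries too, and kl-3 exceeded ORY in 3 of 3, but each of these differences was smaller than the larger SD of the pair.

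ORY (4.11 ± 2.33 CPM per kb) and kl-5 (3.74 ± 2.75) changed places between libraries, and their difference was within their spread. kl-2 (1.92 ± 1.19), ARY (1.8 ± 0.549), PRY (1.42 ± 0.751), CCY (1.09 ± 0.689) and Pp1-Y2 (0.688 ± 0.325) were lower. Neighbors in this order overlapped and differed by less than the larger SD, while the ranges of ARY (1.2 to 2.27) and Pp1-Y2 (0.487 to 1.06), which are not neighbors, did not overlap. Of the dynein genes, kl-3 exceeded kl-5 and kl-5 exceeded kl-2 in every male library. Among the 16443 genes with any male count, 90.5% had a lower level per kb than Ppr-Y, 79.0% than WDY and 75.1% than kl-3. kl-2, ARY, PRY, CCY and Pp1-Y2 lay below the median gene of the whole larva, at 2.67 CPM per kb, and 30.5% of genes were below Pp1-Y2. Over the 10 genes, level per kb went with the genomic span (Spearman's rho = 0.92, n = 10 genes from the same libraries, a description only) and hardly with exon length (rho = 0.19).

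**Figure D3:**
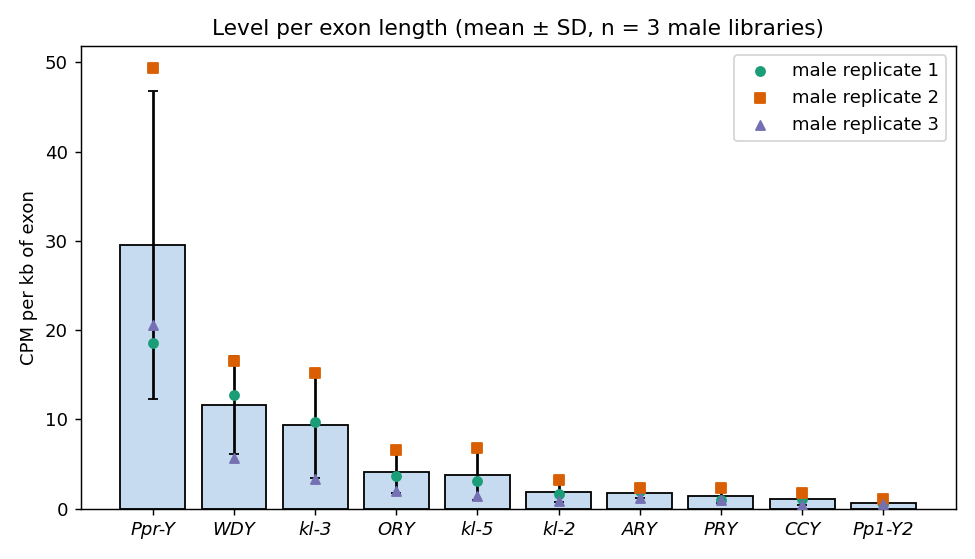
Mean CPM per kb of merged exon in males (bars, ± SD, n = 3 libraries) with the single libraries as points. Ppr-Y stands at 29.5, WDY and kl-3 near 10, and the other genes at or below 4.11 CPM per kb.

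The male libraries differed widely in these genes. Summed over the group, the level was 295.3, 524.9 and 143.9 CPM in replicates 1, 2 and 3, a ratio of 3.65 between replicates 2 and 3. The coefficient of variation had a median of 57.4% over the 10 genes, and 25.9% over all 13187 genes whose male libraries each had 10 counts or more. Replicate 2 was the highest for 10 of 10 genes and for 66.1% of all those genes. Replicate 3 was the lowest for 8 of 10, PRY and Ppr-Y being lowest in replicate 1, and for 72.2% of all those genes. In RNA of whole larvae, fewer cells of a type and less RNA per cell cannot be told apart.

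The size of the difference was not the same for every gene. Between male replicates 2 and 3, the CPM ratio was 4.92 for kl-5, 4.64 for kl-3, 4.37 for CCY, 3.58 for kl-2 and 3.27 for ORY. It was 2.92 for WDY, 2.39 for Ppr-Y, 2.3 for PRY, 2.18 for Pp1-Y2 and 1.9 for ARY. The dynein genes kl-5 and kl-3 and the coiled-coil gene CCY therefore differed most between these libraries, and the compact genes Pp1-Y2 and ARY least. As a result the dynein genes took 67.4% and 65.9% of the group's counts in replicates 1 and 2, but 53.0% in replicate 3, and Ppr-Y went from 10.8% and 16.1% to 24.5%. The median of the same ratio over all 13187 genes was 1.48. Under TMM library sizes, an alternative chosen after seeing the data, that median was 1.09, and the 10 genes ranged from 1.39 to 3.61, with replicate 2 highest for 10 of 10 and replicate 3 lowest for 7.

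The ratio between these male libraries also went with transcript length across the whole table. Its median was 1.01 for the 715 genes with up to 0.5 kb of exon, 1.31 for the 4187 genes of 1 to 2 kb, and 2.2 for the 494 genes over 8 kb, leaving the 10 Y-linked genes out. Over the Y-linked genes, the ratio went with exon length (rho = 0.88, n = 10 genes from the same pair of libraries, a description only). Set beside genes of like length, each of the 10 was above the median of its length class for this pair of libraries. kl-3 exceeded 97.8% of its class, CCY 98.5%, ORY 97.6% and kl-2 94.7%. ARY exceeded 83.9%, the lowest share of the group. Beside genes of like length that were called higher in males than in females, 10 of 10 were also above the median. ARY had 57.6% of that class below it and PRY 74.8%. Such a class held only 17 genes for kl-2, kl-3 and kl-5 and 82 for CCY. The 494 genes over 8 kb had a median exon length of 10.3 kb, shorter than these dynein genes (13.4 to 13.9 kb). This pair includes replicate 2, in which all 10 genes were highest, and another pair differed. Between replicates 1 and 3, the ratio was 0.902 for Ppr-Y, 0.989 for PRY and 1.06 for Pp1-Y2. These lay below the median of 1.23 over all 13187 genes, while the other Y-linked genes ran from 1.61 (ARY) to 2.97 (kl-3). The length classes were chosen after seeing the data, and the part of transcript length in this spread was not tested.

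**Figure D4:**
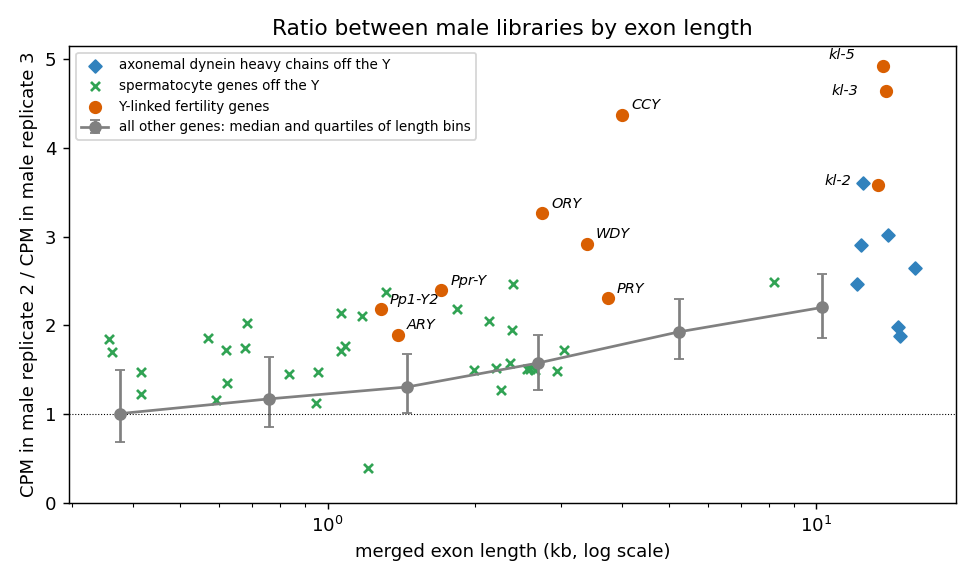
CPM in male replicate 2 divided by CPM in male replicate 3 against merged exon length (kb, log scale). Orange points are the 10 Y-linked genes, blue diamonds 7 axonemal dynein heavy chains of other chromosomes, green crosses 33 spermatocyte genes of other chromosomes, and grey points with bars the median and quartiles of all other genes by length class; the grey medians climb from 1.01 to 2.2, and all 10 Y-linked genes lie above them.

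Genes used by spermatocytes but located on other chromosomes gave a frame for these values. They were taken as fixed lists, and the members of the lists were chosen with earlier results of these data known. The first list holds 13 regulators of spermatocyte transcription and meiotic entry, such as the testis-specific activator aly, the testis TAF genes can, sa, mia, nht and Taf12L, and the RNA-binding protein bol. All 13 were called higher in males than in females and 12 of 13 higher than in metafemales, mia being the exception. Of all genes tested, 17.6% and 21.3% were so called. For 4 of the 13, the female mean lay under 3 counts, so their call against females followed from their male counts. Their median log2 ratio of male to female mean CPM was 5.34, against 0.12 over all genes tested, with means under 3 counts set to that floor. bol had 140.9, 240.1 and 96.6 CPM in male replicates 1, 2 and 3 and 14.8 ± 2.56 CPM in females (SD, n = 3), and vis, a homeodomain protein that works with aly, had 22.1, 26.8 and 17.7 CPM against 1.77 ± 0.3. Both were therefore also counted in every female library, unlike the Y-linked genes.

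A second list holds 20 genes taken as spermatocyte targets and called late genes here for short, though not all are limited to the germ line. Among them are the testis tubulin betaTub85D, the sperm chromatin protein Mst77F and loopin-1, a leucyl aminopeptidase of sperm. Of these 20, 19 were called higher in males than in females, all but CycB, against 17.6% of all genes tested. CycB had 25.8 to 27.3 CPM in the female libraries. Against metafemales, 20 of 20 were called higher, where 21.3% of all genes tested were. Their median log2 ratio to females was 9.21. The Y-linked genes had 9.78, but 10 of 10 of them and 11 of 20 late genes had female means under the floor of 3 counts. Both medians are therefore set by depth and male level and are not compared. The calls of these 11 late genes against females likewise followed from their male counts. betaTub85D had 48.6, 73.0 and 33.3 CPM in male replicates 1, 2 and 3 and 0.0449 ± 0.0255 CPM in females. loopin-1 had 83.7, 127.8 and 62.2 CPM against 0.131 ± 0.125.

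The sums of both lists had the same order of male libraries as the sum of the Y-linked genes, with smaller ratios. This order also held for 59.2% of all 13187 genes whose male libraries each had 10 counts or more, so it is not particular to these lists. The regulators summed to 240.1, 348.3 and 171.0 CPM in male replicates 1, 2 and 3, and the late genes to 530.7, 738.2 and 418.2 CPM. Between replicates 2 and 3, the median ratio per gene was 1.5 for the regulators and 1.81 for the late genes, against 3.09 for the Y-linked genes and 1.48 for all genes. The lists were not matched for exon length, with which this ratio went over all genes, and the longest Y-linked genes exceed most listed genes in length. Single genes did not all share the order of the sums: replicate 2 was the highest for 10 of 13 regulators, the others being aly, nht and Taf12L, and for 19 of 20 late genes. It was the highest for 66.1% of all those 13187 genes and for 85.6% of the genes called higher in males than in females. The late gene that differed was dj, which encodes a sperm tail protein, with 18.1, 6.12 and 15.5 CPM and a ratio of 0.396. The 6 general germline genes (among them vas, aub and bam) summed to 22.9, 25.5 and 14.7 CPM in males. Of these genes, 4 of 6 were called higher than in females and 6 of 6 higher than in metafemales, against 17.6% and 21.3% of all genes tested. The 4 genes of the gonad soma (tj, eya, zfh1 and upd1) included 0 called higher than in females or in metafemales by edgeR. Of these 4, upd1 was called lower in males than in metafemales, as were 9.52% of all genes tested. The gonad soma genes are also used by many other larval tissues, and their summed level was 36.9 to 84.4 CPM in males and 44.6 to 52.3 CPM in females. In metafemales and females, the regulators summed to 21.4 to 47.4 CPM, while the Y-linked genes were at 0.

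**Figure D5:**
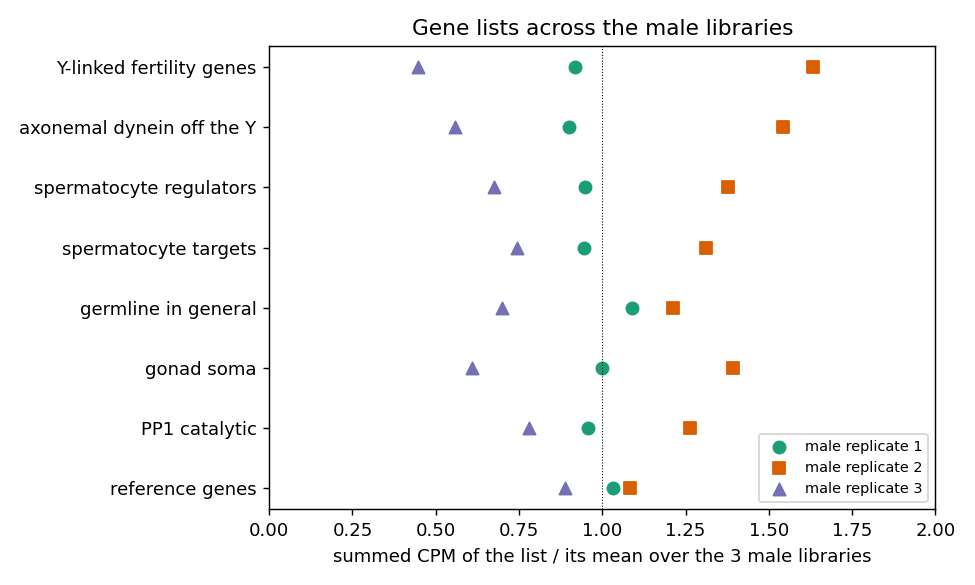
Summed CPM of 8 gene lists (those on the vertical axis) in the 3 male libraries, divided by the list's mean over these libraries; one symbol per library. The Y-linked genes spread the most, from 143.9 to 524.9 CPM, and each of the 8 sums is highest in male replicate 2 and lowest in male replicate 3.

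The RNA-binding proteins blanks and heph are known to be needed for the processing of transcripts of Y-linked genes with giant introns in spermatocytes. blanks was a male gene here, with 36.9, 37.6 and 28.1 CPM in male replicates 1, 2 and 3 and 0.116 ± 0.00858 CPM in females (SD, n = 3), a log2 fold change of 8.07 with a standard error of 0.16 (adjusted p = 1.6e-05, edgeR). heph, which acts in many tissues, was at 1719 ± 772 CPM in males and 1356 ± 172 in females and was not called (adjusted p = 0.742, edgeR). The groups overlapped for heph and not for blanks. Between male replicates 2 and 3, blanks differed by a factor of 1.34 and heph by 2.53.

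Dynein heavy chains of other chromosomes offered a comparison by family. Of 7 axonemal ones, 6 were called higher in males than in females and 5 higher than in metafemales (17.6% and 21.3% of all genes tested). Their median log2 ratio to females was 4.38. Dhc36C (2L) had 21.7, 42.2 and 14.5 CPM in male replicates 1, 2 and 3, against 0.542 ± 0.0353 CPM in females (log2 fold change 5.42, standard error 0.34, adjusted p = 8.03e-05, edgeR). Dhc98D (3R) had 21.3, 32.4 and 12.3 CPM against 0.13 ± 0.0989. Per kb, Dhc36C stood at 2.12 ± 1.17 CPM in males, near kl-2 (1.92) and below kl-5 (3.74) and kl-3 (9.38), and Dhc98D at 1.38 ± 0.634. Dhc64C, the heavy chain of cytoplasmic dynein that all cells use, was at 11.1 ± 3.45 CPM per kb, and the range of kl-3 (3.27 to 15.2) included that mean. Dhc64C did not differ between males and females by the test (161.3 ± 50.3 against 166.4 ± 13.1 CPM, adjusted p = 0.562, edgeR). Between male replicates 2 and 3, the axonemal genes of other chromosomes had a median ratio of 2.64 with a highest value of 3.61 for Dhc16F, while kl-3 and kl-5 were at 4.64 and 4.92.

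The catalytic subunits of protein phosphatase 1 divided in the same way. The broadly used genes flw, Pp1-87B and Pp1alpha-96A were not called between males and females, flw being at 166.7 ± 39.2 CPM in males and 184.8 ± 13.5 in females. Pp1-13C, PpD5, PpD6 and the Y-linked Pp1-Y1 were called higher in males than in females, that is 4 of 7, against 17.6% of all genes tested. PpD5 and Pp1-Y1 had 0 counts in all female and metafemale libraries, so their calls followed from their male counts. Pp1-13C on the X had 5.07, 6.18 and 3.68 CPM in males, and Pp1-Y1, which lies on the Y but was not among the 10 genes, had 0.631, 1.03 and 0.443. Per kb, Pp1-Y1 (0.735 ± 0.313 CPM) and Pp1-Y2 (0.688 ± 0.325) differed by less than the spread of either. Their means were also within the spread of PpD6 (0.852 ± 0.286), though PpD6 exceeded both in every male library. Both Y-linked genes lay below Pp1-13C (2.63 ± 0.661) and PpD5 (2.61 ± 0.843). How reads shared by these related genes were divided is not stated.

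The annotation places 113 genes other than transposable elements on the Y chromosome, and all of them are listed in the table. The 103 that remain after the 10 genes above comprise 13 protein-coding genes, 62 pseudogenes and 28 noncoding RNA genes, 27 of which are copies of Su(Ste), a repeat that silences Stellate in the male germ line. Together they had 2161, 2786 and 1450 counts in male replicates 1, 2 and 3, so the 10 genes held 94.8%, 97.1% and 92.9% of the counts of the 113 genes. Transposable elements and assembled transcripts without a gene are outside this share. Of the 103 genes, 23 had no male count, 20 had at least 10 counts in every male library, and 18 of the 19 that passed the filter were called higher in males than in females, against 17.6% of all genes tested. These 18 had 0 counts in all female libraries and passed the filter through the males, so their call followed from their male counts, and CR41507 was the one not called. Many are near-identical copies that can exchange reads, so their single values are uncertain.

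FDY, a Y-linked copy of the gene vig2, had the most counts of these, 986, 1112 and 743 in male replicates 1, 2 and 3, and 0 in the 6 other libraries. Its level of 7.4, 6.25 and 5.68 CPM varied less, and its ratio of 1.1 between replicates 2 and 3 lay below those of all 10 genes. The pseudogene CR45772 had 129, 272 and 99 counts, the Mst77F copy Mst77Y-7 had 84, 151 and 68, and the pseudogene CR45771 had 149, 99 and 0. The 27 Su(Ste) copies summed to 105, 99 and 52 counts. Only 2 of the 103 genes had any count outside males: CR41507, with 0 to 11 counts in the female and 4 in each metafemale library against 16 to 30 in males, and CR46186, with 1 count in metafemale replicate 1. The table therefore keeps values as low as a single count for some genes. Whether a minimum that differs between genes had a part in the 0 counts of the 10 genes was not tested.

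A single transcript is listed for 9 of the 10 genes, and ARY has a pair. ARY-RD took 99.2%, 78.3% and 93.1% of the ARY counts in male replicates 1, 2 and 3, and ARY-RC the rest, with 3, 122 and 15 counts. The pair share most of their exons, so this division is an estimate. The genes whose pattern over the 9 libraries was most like the sum of the 10, among 13090 genes of other chromosomes and outside the lists, were CG12438, asRNA:CR43160, CG43049, CG14013 and CG11666, each with a Pearson correlation above 0.99 on log2 values with 0.01 CPM added. All 5 had 0 counts in females and metafemales. The correlation was above 0.99 for 860 genes, since any gene with even male levels and no other counts comes near to 1, so this likeness singles out no gene.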

How the data were processed

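Per the study's methods, read pairs (150 bases each) were mapped with Hisat2 against Ensembl release 102 (BDGP6), and the authors screened annotated lncRNAs with Cuffmerge and quantified transcripts with StringTie. Per the labels, ribosomal RNA had been removed from the libraries. The deposited data are 1 table of expected counts per transcript, as whole numbers without normalization, so no rounding was needed. Strand use in counting is not given in the sources used here. Of 34919 FlyBase transcripts, 34750 matched a gene in the Ensembl annotation (release 115, BDGP6.54, whose coordinates are printed) and were summed per gene, 1 further entry names a gene, and 8017 assembled transcripts count only toward the totals. CPM used the total of the whole table. The floor of 3 counts covers counting error only.

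Tests used edgeR 4.0.16 in R 4.3.3 (TMM, filterByExpr, quasi-likelihood, 6 libraries per comparison). DESeq2 1.42.0, other scalings, filters, a fit of all 9 libraries, the replicate number as a factor and each library left out in turn were the alternatives. The test was run on simulated data, where 200 of 200 genes changed by a log2 fold of 2 were recovered. The spread set there was below the median of the male libraries, so this checks the procedure and not these results. The other steps used Python 3.11.15 with pandas 2.3.3 and numpy 2.4.6. The named genes were the 10 members, the other Y-linked genes with the most counts, the lists' most abundant genes and the 5 most alike genes, with further genes named where they are an exception or a counterpart. The listed gene CG9492 proved to be a synonym of Dhc1 and was counted once. Members, lists and alternatives were chosen with earlier results of these data known.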

Additional observations from a re-analysis of the deposited data

How the results depend on the processing

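The number of the 10 Y-linked genes called higher in males was 10 against females and 10 against metafemales under every alternative, except that a minimum mean of 1 CPM removed Pp1-Y2 and left 9 of 9. Their direction could not change, as they had no count in any female or metafemale library. Their calls followed from the male counts, so the unchanged calls add no support. That filter also lowered the genes called between males and females from 2446 to 1515, while DESeq2 gave 2757 and the replicate number as a block 2108. For males against metafemales the block gave 3623 called genes against 4248, and for metafemales against females 1641 against 1745. The block changed no call of the 10 genes. Same-numbered libraries did not deviate together in all pairs (correlations from -0.414 to 0.292 over 8204 genes), so the numbers were not taken as pairs. With each library left out in turn, 2414 to 2481 genes were called between males and females, 3914 to 4444 between males and metafemales, and 1503 to 1787 between metafemales and females, with 10, 10 and 0 of the Y-linked genes. The summed male level of the 10 genes was 321.4 CPM and ranged from 219.6 CPM without male replicate 2 to 410.1 CPM without male replicate 3. Plain library totals in place of TMM moved the median log2 fold change of all genes from 0.01 to 0.12 in males against females and from 0.11 to 0.31 in males against metafemales, far below the differences of the 10 genes. The level of ARY moved by more than its SD with totals over annotated transcripts only, from 2.5 to 3.44 CPM. Fitted log2 fold changes of genes at 0 depend on the prior count and were not used as sizes.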
